A study of Mus musculus with 8 samples.

Results

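H19 and the other imprinted growth genes described here are 10 genes that were listed by symbol: H19, Igf2, Igf2r, Meg3, Dlk1, Cdkn1c, Peg3, Plagl1, Grb10 and Mest. They were chosen by symbol after the rlog values of H19 had been seen to be much higher in ob/ob mice than in both other groups, so the levels of its genes in ob/ob mice are given as a description without a test. Of the 10 genes, 9 had a row among the 15047 gene symbols with values, and Dlk1 was not analysed here.

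RNA-Seq was performed on pancreas tissue of male mice. C57BL/6 WT mice received LFD (n = 3) or HFD, with 60% of calories from fat (n = 3), and leptin-deficient C57BL/6J ob/ob mice received standard chow (n = 2). Diets began at 4 weeks of age and lasted 10 weeks. In the methods and legends of the study, all these mice carried an orthotopic graft of mT organoids, grown from the neoplastic pancreas of donor mice whose Cre is driven by the Pdx1 promoter in pancreatic epithelium. The graft is not mentioned in the sample labels, which give pancreas as the tissue. Genotype and chow both set the ob/ob mice apart from the other groups, so their parts cannot be told apart. In whole tissue, fewer cells of a type and less RNA per cell cannot be told apart either, nor can RNA of the host and RNA of the graft.

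An imprinted gene is read from the copy of 1 parent, the other copy being silenced by DNA methylation or chromatin set in the germline. Many imprinted genes act on growth before birth, with paternally expressed genes such as Igf2 tending to promote it and maternally expressed genes such as H19, Cdkn1c and Grb10 tending to restrain it, and several of them are switched down in most tissues after birth. H19 and Igf2 lie side by side and share enhancers, and a methylated control region between them decides which of them is read from each chromosome.

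On GRCm38 (Gencode M21), H19, a long noncoding RNA gene, occupies chromosome 7 from 142575529 to 142578143 on the minus strand. Igf2 lies on the same strand from 142650766 to 142666816, which leaves 72.6 kb between their ends. Cdkn1c (143458339 to 143461050) and Peg3 (6703892 to 6730431) are on chromosome 7 as well. Meg3 is on chromosome 12 (109541001 to 109571726), where it lies 77.7 kb from Dlk1, and Igf2r is on chromosome 17 (12682406 to 12769664). Plagl1 is on chromosome 10 (13060504 to 13131694), Grb10 on chromosome 11 (11930508 to 12038683) and Mest on chromosome 6 (30723547 to 30748465).

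Some of these genes also carry a microRNA. Meg3 is one of them, with miR-770 and miR-1906 in its exons, and their sequences are not shown here. H19 is the primary transcript of miR-675, which lies in an exon of H19, while miR-483 lies in an intron of Igf2 and miR-335 in an intron of Mest. The mature sequences of miR-675, miR-483 and miR-335, from the RefSeq table for GRCm38.p6, are shown because they are products that the host transcripts can release. The seed, bases 2 to 8, is in capitals.
miR-675-5p (H19): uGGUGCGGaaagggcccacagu
miR-675-3p (H19): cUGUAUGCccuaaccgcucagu
miR-483-5p (Igf2): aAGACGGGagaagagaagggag
miR-483-3p (Igf2): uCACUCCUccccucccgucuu
miR-335-5p (Mest): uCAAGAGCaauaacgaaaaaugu
miR-335-3p (Mest): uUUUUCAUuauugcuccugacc
None of these 6 seeds was the same as another. The microRNA genes themselves had no row among the gene symbols, so the values below are those of the host genes.

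The values are rlog values, which are gene counts on a log2 scale after correction for library size, with differences between mice pulled together for genes with few reads. A difference of 1 in rlog is therefore a doubling on the rlog scale. The depth of each mouse is unknown, and rlog is not corrected for gene length, so levels are compared between mice and not between genes. Among the mice, pairwise correlations of the rlog values across genes ranged from 0.884 to 0.982. Differences were tested by limma in all 8 mice, and p-values were adjusted over all 15047 genes. No gene of the whole set (0.0%) had an adjusted p-value under 0.05 in any of the 3 comparisons, and none of the imprinted growth genes did in HFD against LFD. The smallest adjusted p-values were 0.0864 in HFD against LFD, 0.135 in ob/ob against LFD and 0.883 in ob/ob against HFD. At an unadjusted p-value under 0.05 limma called 2985, 2831 and 588 genes. Counts of genes below are therefore at the unadjusted threshold, and are to be read beside the share of all genes called in the same comparison and direction.

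H19 had rlog values of 4.58, 5.03 and 4.73 in the LFD mice, 4.92, 5.77 and 5.69 in the HFD mice, and 7.32 and 8.82 in the ob/ob mice. Both ob/ob mice were above every other mouse, and they were further apart from each other than any pair of mice on LFD or HFD. The means were 4.78 ± 0.23 (SD, n = 3), 5.46 ± 0.47 (SD, n = 3) and 8.07 ± 1.06 (SD, n = 2). H19 was 3.29 ± 0.46 (SE) higher in ob/ob than in LFD mice, or 9.75-fold on the rlog scale, and 2.61 ± 0.46 (SE) higher than in HFD mice, or 6.09-fold. In both comparisons this was the highest of the 15047 differences, the next being 2.85 for Serpina7 against LFD and 2.27 for Tnr against HFD. With the first ob/ob mouse alone the differences were 2.54 and 1.86, and with the second alone 4.03 and 3.35.

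Between the diets, which the choice of the genes did not use, H19 was 0.68 ± 0.41 (SE) higher in HFD than in LFD mice, with an adjusted p-value of 0.372 in limma. The first HFD mouse (4.92) was within the LFD range, and the other HFD mice were above it. H19 was thus lowest on average in LFD, then HFD, then ob/ob, and the step from LFD to HFD did not pass the test.

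**Figure D1:**
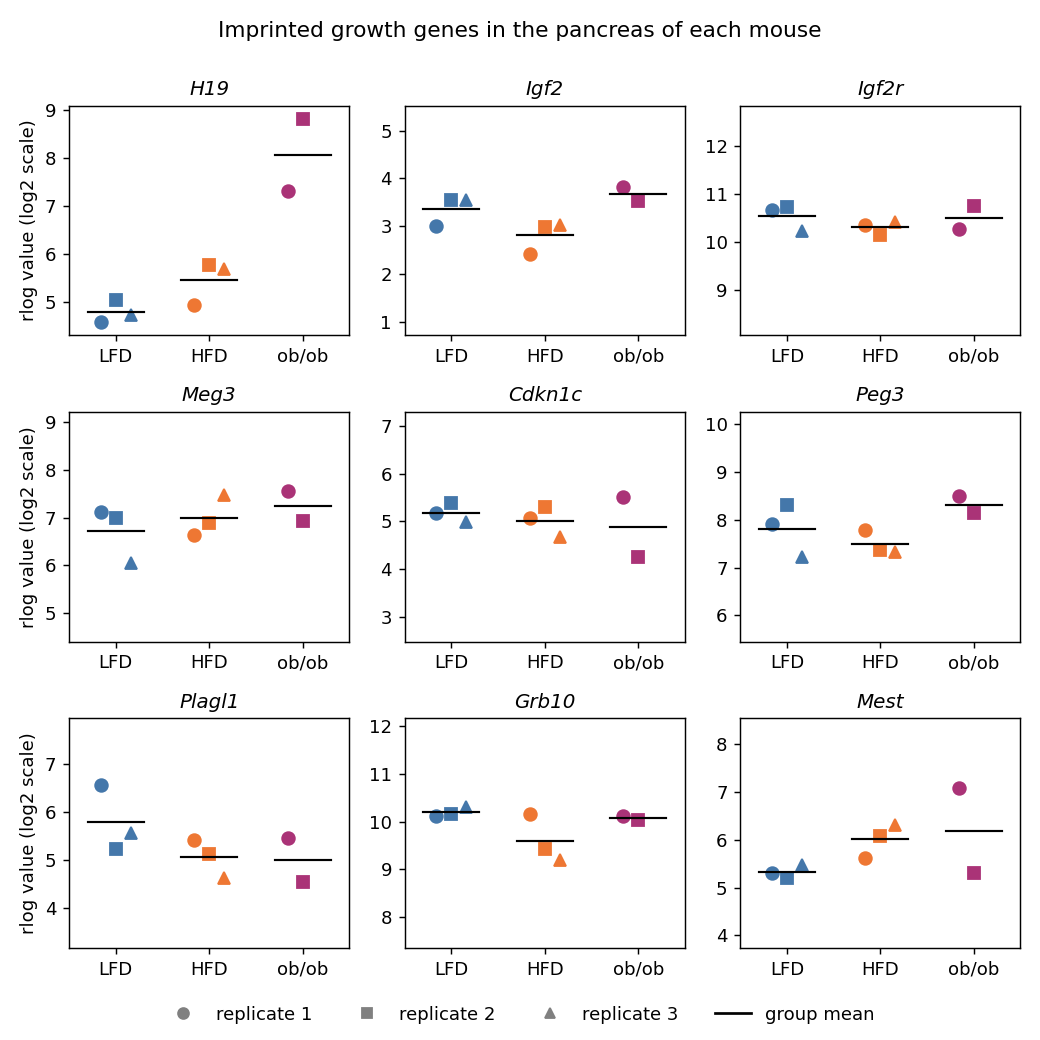
Rlog values (log2 scale, vertical axes) of the 9 measured imprinted growth genes in each mouse, by group, with replicates as symbols and group means as lines. The vertical axes span the same width, so that spreads can be compared between genes, and H19 reaches 7.32 and 8.82 in the ob/ob mice against at most 5.77 elsewhere.

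Igf2, the growth factor whose gene neighbours H19, had its groups in another order, with HFD lowest. Its rlog values were 3.0, 3.55 and 3.55 in LFD, 2.42, 2.98 and 3.02 in HFD, and 3.82 and 3.53 in ob/ob mice. The ob/ob mice lay above the HFD mice, and 1 of them was within the LFD range. The difference was 0.31 ± 0.33 (SE) for ob/ob against LFD and 0.87 ± 0.33 (SE) for ob/ob against HFD. In HFD against LFD, Igf2 was lower by 0.56 ± 0.29 (SE; adjusted p = 0.314, limma), with 1 LFD mouse at the level of the highest HFD mice. Without the first HFD mouse this became -0.36, and without the first LFD mouse -0.74, which was called. The rlog transformation shrinks the differences of genes with few reads, so low values such as those of Igf2 may understate a difference.

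Igf2r, a receptor that carries IGF2 to lysosomes for degradation, had values of 10.67, 10.74 and 10.24 in LFD, 10.36, 10.15 and 10.43 in HFD, and 10.27 and 10.74 in ob/ob mice. All 3 groups overlapped. The difference of HFD from LFD was -0.23 ± 0.20 (SE; adjusted p = 0.525, limma), and ob/ob mice differed from LFD mice by -0.04 and from HFD mice by 0.19. Neither sign held when 1 ob/ob mouse was left out, since the difference from LFD became 0.19 without the first ob/ob mouse and that from HFD -0.05 without the second. The sign against LFD also turned without the first or the second LFD mouse (0.02 and 0.05) and with quantile normalization (0.11).

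Grb10, an adaptor protein that binds the insulin and IGF1 receptors and dampens their signalling, gave the 1 call among the 9 genes between the diets, where 19.8% of all genes were called, 11.5% as higher and 8.35% as lower. Its values were 10.11, 10.16 and 10.31 in LFD, 10.15, 9.42 and 9.20 in HFD, and 10.12 and 10.03 in ob/ob mice. The second and the third HFD mouse were below all the other mice, and the first HFD mouse was among the LFD mice. Grb10 was lower by 0.61 ± 0.24 (SE) in HFD than in LFD, at an unadjusted p-value under 0.05 but an adjusted p-value of 0.227 in limma. Without the first HFD mouse it fell by 0.89 ± 0.16 (SE) with an adjusted p-value of 0.0167 in limma, a threshold that 18.7% of all genes then passed. The unadjusted call was lost without any 1 of the 3 LFD mice or the second or the third HFD mouse, with differences from -0.65 to -0.41. In ob/ob mice Grb10 differed from LFD by -0.12 ± 0.27 (SE) and from HFD by 0.49 ± 0.27 (SE), and the first HFD mouse was above both ob/ob mice. The difference from LFD was 0.23 with the mean of acinar markers as a covariate and 0.0054 with quantile normalization.

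Cdkn1c, an inhibitor of cyclin-dependent kinases that restrains the cell cycle, overlapped between all groups. Its values were 5.18, 5.38 and 4.99 in LFD, 5.07, 5.31 and 4.67 in HFD, and 5.51 and 4.27 in ob/ob mice, so the ob/ob mice gave both the highest and the lowest value. HFD differed from LFD by -0.17 ± 0.36 (SE; adjusted p = 0.814, limma). This sign turned without the third HFD mouse, to 0.0077. Against LFD the ob/ob mice differed by -0.30, and against HFD by -0.13, and each sign turned when the second ob/ob mouse was left out, to 0.32 and 0.49. The difference from LFD was 0.13 with the acinar covariate, and that from HFD 0.01 without the second HFD mouse.

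Meg3, a maternally expressed noncoding RNA of the Dlk1 region, had values of 7.12, 6.98 and 6.05 in LFD, 6.64, 6.89 and 7.47 in HFD, and 7.57 and 6.94 in ob/ob mice. The groups overlapped, and the third LFD mouse was the lowest. HFD was 0.29 ± 0.36 (SE) above LFD (adjusted p = 0.664, limma), and this became -0.05 without the third LFD mouse. The ob/ob mice were 0.53 above LFD and 0.25 above HFD, and the latter became -0.07 without the first ob/ob mouse.

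Peg3 and Plagl1 are paternally expressed zinc finger proteins, and Plagl1 is known as a transcription factor that acts on other imprinted genes. Peg3 had values of 7.92, 8.30 and 7.21 in LFD, 7.79, 7.37 and 7.33 in HFD, and 8.49 and 8.13 in ob/ob mice. The ob/ob mice lay above the HFD mice, and the LFD mice spanned most of the range of both. The difference of HFD from LFD was -0.32 ± 0.29 (SE; adjusted p = 0.552, limma), and ob/ob mice were 0.50 ± 0.33 (SE) above LFD and 0.82 ± 0.33 (SE) above HFD. Between the diets the difference was -0.07 without the second LFD mouse and -0.61, which was called, without the third. Without the third LFD mouse the difference of ob/ob from LFD was 0.20.

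Plagl1 had values of 6.57, 5.23 and 5.57 in LFD, 5.42, 5.12 and 4.63 in HFD, and 5.45 and 4.54 in ob/ob mice. The first LFD mouse stood above all the others, and the remaining mice overlapped. Plagl1 was lower by 0.74 ± 0.42 (SE) in HFD than in LFD (adjusted p = 0.349, limma), and the difference was -0.34 without the first LFD mouse. In ob/ob mice it was 0.80 lower than in LFD mice and 0.06 lower than in HFD mice. These values rested on single mice. The difference from LFD was -1.25 without the first ob/ob mouse, -0.34 without the second and -0.41 without the first LFD mouse, and that from HFD turned to 0.39 without the second ob/ob mouse and to 0.12 without the first HFD mouse.

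Mest, a paternally expressed gene for a membrane protein of the hydrolase family that is known to be high in expanding adipose tissue, was the 1 gene of the 9 whose HFD mice all lay above the LFD mice, a pattern of 12.9% of all genes. Its values were 5.30, 5.19 and 5.46 in LFD, 5.63, 6.09 and 6.31 in HFD, and 7.08 and 5.30 in ob/ob mice. HFD was 0.69 ± 0.43 (SE) above LFD (adjusted p = 0.384, limma), which was not called. In a fit to the HFD and LFD mice alone it was 0.69 ± 0.27 (SE; adjusted p = 0.211, limma), which was called. The ob/ob mice gave no single level, since the first was the highest of all mice and the second was within the LFD range. The difference of ob/ob from LFD, 0.87, became -0.02 without the first ob/ob mouse and 1.76 without the second, while that from HFD, 0.18, became -0.71 and 1.07.

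Across the 9 genes, HFD against LFD gave 3 positive and 6 negative differences, with a median of -0.23 against 0.03 over all genes. In ob/ob against LFD mice 5 differences were positive and 4 negative with a median of 0.31, and in ob/ob against HFD mice 7 were positive and 2 negative with a median of 0.25, where the medians of all genes were 0.04 and 0.01. These are signs of differences and not calls. H19 alone had ob/ob and LFD mice that did not overlap, and 24.1% of all genes had ob/ob mice wholly above LFD mice. H19, Igf2 and Peg3 had ob/ob mice above all HFD mice, as did 7.92% of all genes. The ob/ob values enter both of these comparisons, the LFD values enter both comparisons with LFD, and the choice of the genes rests on H19 in ob/ob mice, so these counts are descriptions. By the parent of origin, the maternally expressed genes (5 of 5 measured) had a median difference of -0.04 in ob/ob against LFD, and the paternally expressed genes (4 of 5) one of 0.41. Among the maternally expressed genes, the differences of Igf2r, Meg3, Cdkn1c and Grb10 in that comparison lay between -0.30 and 0.53.

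**Figure D2:**
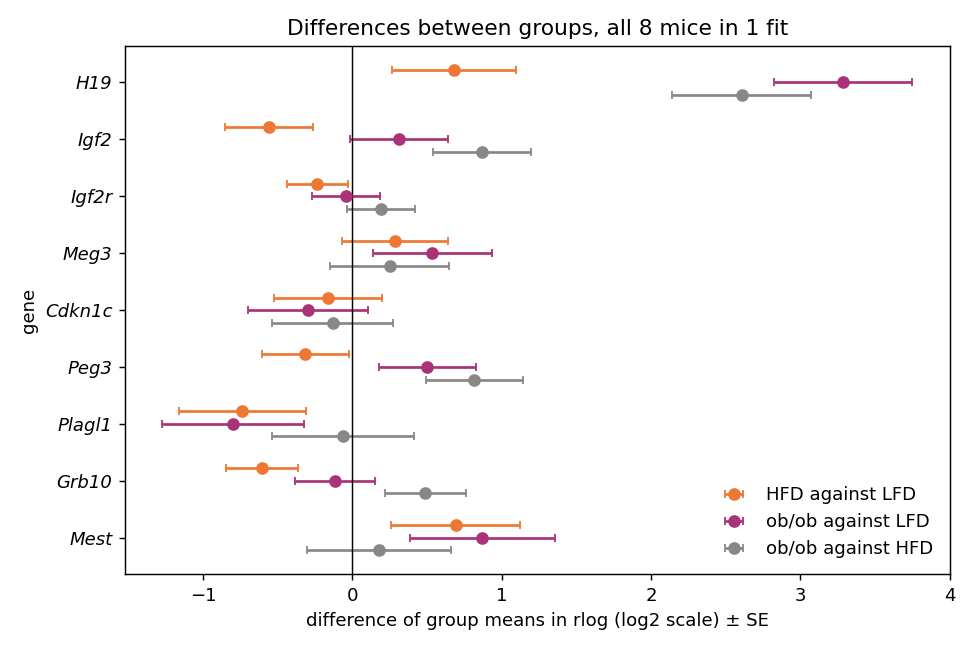
Differences of group means in rlog (log2 scale, horizontal axis) for the 9 genes (vertical axis) in the 3 comparisons, with points for the difference and bars for the SE of the fit to all 8 mice. The ob/ob differences of H19, 3.29 and 2.61, lie apart from those of the other 8 genes, which range from -0.80 to 0.87.

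The wider group of imprinted genes gave no common direction. Of 53 other imprinted genes, 44 had a row. The rlog values do not separate the parental copies, so whether these genes are imprinted in the pancreas was not examined. In HFD against LFD, 3 were higher and 4 lower at the unadjusted threshold, beside the 11.5% and 8.35% of all genes, with a median of -0.07. In ob/ob against LFD, 5 were higher and 5 lower, where 18.8% of all genes were called (11.6% higher, 7.18% lower), with a median of -0.01. In ob/ob against HFD, 1 was higher and 1 lower, where 3.91% of all genes were called (2.28% higher, 1.63% lower), with a median of 0.08. None had an adjusted p-value under 0.05 in limma.

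The named genes of this group lay on both sides. Gatm, which makes the precursor of creatine and is abundant in acinar cells, had 12.998, 13.10 and 13.18 in LFD, 12.81, 11.05 and 10.01 in HFD, and 12.18 and 10.37 in ob/ob mice. Its differences from LFD were -1.80 in HFD and -1.82 in ob/ob mice, both called, with every HFD and ob/ob mouse below the LFD mice. Trappc9, a subunit of a vesicle tethering complex, was close to 9.84, 9.90 and 9.87 in LFD and was 9.09, 8.36 and 8.36 in HFD and 8.96 and 8.39 in ob/ob mice, with differences of -1.26 and -1.19, both called. Kcnq1, a potassium channel gene near Cdkn1c, was called in ob/ob against LFD, at -1.30.

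Tfpi2, an inhibitor of serine proteases in the extracellular matrix, was the largest difference upward among these genes, and was called in both comparisons with LFD. It had 4.14, 3.53 and 3.33 in LFD, 4.57, 5.24 and 5.08 in HFD, and 5.02 and 5.0 in ob/ob mice, or 1.30 and 1.34 above LFD. Against HFD, the ob/ob mice were higher in Peg10, a retrotransposon-derived gene needed by the placenta (0.78, called), and lower in Phlda2, a brake on placental growth (-0.98, called). Slc38a4, an amino acid transporter, differed by 0.80 and was not called. The mean rlog values of Peg10 and Phlda2 over all mice were low, at 3.13 and 3.19, as for Igf2.

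**Figure D3:**
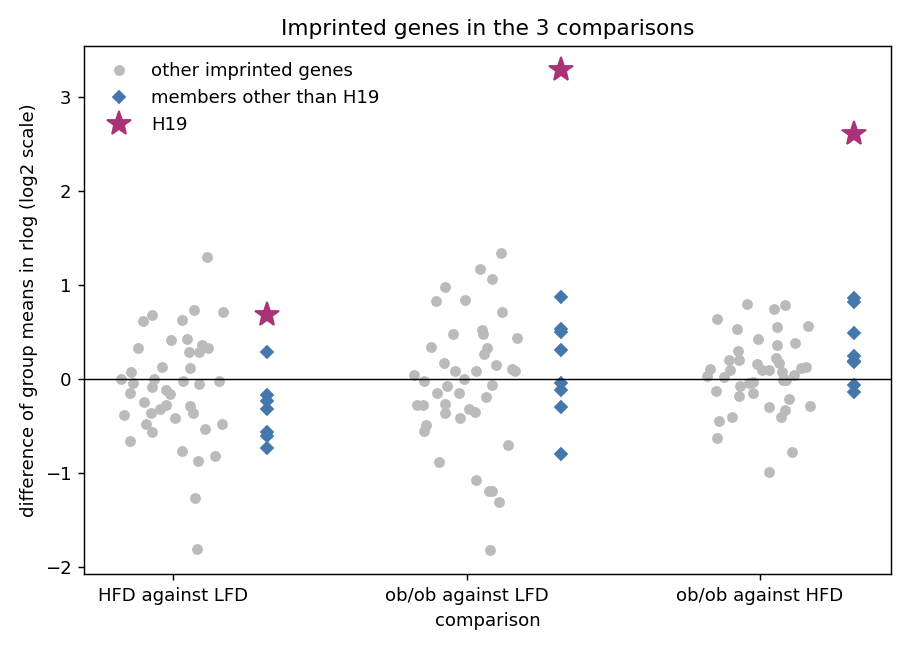
Differences of group means in rlog (log2 scale, vertical axis) in each comparison (horizontal axis) for 44 other imprinted genes (grey points), the growth genes other than H19 (blue diamonds) and H19 (star). H19 lies above all of them in both comparisons with ob/ob mice and among them, at 0.68, in HFD against LFD.

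Genes that flank H19 and Igf2 were looked at as neighbours, and 6 of 9 had a row. At the unadjusted threshold 1 was higher in HFD than in LFD, 2 in ob/ob than in LFD and 1 in ob/ob than in HFD mice, and none was lower. Of all genes, 11.5%, 11.6% and 2.28% were called as higher in these comparisons. Ins2, a mouse insulin gene that lies beyond Igf2, was 11.62, 12.32 and 11.65 in LFD, 12.10, 11.35 and 11.11 in HFD, and 13.84 and 12.42 in ob/ob mice. It was 1.27 higher in ob/ob than in LFD and 1.61 higher than in HFD mice, both called, and belongs to the islet markers too. Lsp1, a leukocyte protein that binds actin, was called in ob/ob against LFD (1.2) and Tnni2, a troponin of fast muscle, in HFD against LFD (0.78). Syt8, a synaptotagmin, was 1.2 above LFD in both HFD and ob/ob mice, and Ctsd, a lysosomal protease, 0.55 above HFD in ob/ob mice, and none of these was called. The first ob/ob mouse was the higher of the pair for Ins2 and for the neighbour not named here, the reverse of H19. For Lsp1 (8.65 and 9.73), Syt8 (5.09 and 6.67) and Ctsd (13.12 and 13.69) the second was the higher, as for H19. The same order was seen for Tnni2, by little (3.28 and 3.40).

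Among regulators that set or keep imprints, such as DNA methyltransferases and zinc finger proteins, 16 of 18 had a row. Of these, 2 were higher in HFD than in LFD and 3 in ob/ob than in LFD mice, beside 11.5% and 11.6% of all genes, so that the share in HFD was near that of all genes. None was lower, and none was called in ob/ob against HFD. Hells, a chromatin remodeller needed for DNA methylation, was 5.50, 5.39 and 6.15 in LFD, 7.14, 7.74 and 7.85 in HFD, and 7.13 and 8.01 in ob/ob mice. Its differences from LFD were 1.90 and 1.89, both called. Uhrf1, which brings DNMT1 to newly copied DNA, was 1.38 and 1.76 above LFD, both called. Dnmt1, the maintenance methyltransferase, was 0.86 above LFD in ob/ob mice, and Zfp57, which guards methylated imprints, was 0.85 above LFD in HFD mice, and neither was called. For Zfp57 the first HFD mouse (3.23) was below all the other mice, and the other HFD mice had 5.86 and 5.49. Tet3, which oxidises methylated cytosine, was the largest difference downward in ob/ob against HFD, at -0.25, and was not called. Hells and Uhrf1 are also known to be high in dividing cells. Of 10 markers of cycling cells, 8 were higher in HFD and 9 in ob/ob than in LFD mice at the unadjusted threshold, beside 11.5% and 11.6% of all genes. The mean rlog of these markers was 6.14 to 6.67 in LFD, 6.78 to 8.49 in HFD and 7.54 to 8.41 in ob/ob mice, and its part in the values of Hells and Uhrf1 was not tested.

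Of the receptors, binding proteins and proteases that handle IGF ligands, 15 of 16 had a row. In HFD against LFD, 4 were higher and none lower, in ob/ob against LFD 2 were higher and 3 lower, and none was called in ob/ob against HFD. Of all genes, 11.5% and 8.35% were called as higher and lower in the first comparison and 11.6% and 7.18% in the second. Igfbp3, the main carrier of IGFs in blood, was 9.76, 9.74 and 9.50 in LFD, 10.59, 11.39 and 11.45 in HFD, and 10.79 and 11.20 in ob/ob mice. All HFD and ob/ob mice were above the LFD mice, by 1.48 and 1.33 on average, both called. Igfbp4, another carrier, was called in both comparisons with LFD and was 1.24 higher in ob/ob mice. Stc1 and Stc2 encode stanniocalcins, which block a protease that frees IGFs from their carriers. Stc1 was 1.54 higher in HFD than in LFD mice, which was called, while Stc2 was lower by 1.26 in HFD mice, which was not called, and by 1.70 in ob/ob mice, which was. Htra1, a protease that cleaves binding proteins, was 0.75 above HFD in ob/ob mice, through the second ob/ob mouse (10.22). The first ob/ob mouse (7.97) was below every HFD mouse (8.18, 8.55 and 8.30). Igfbp6, a carrier that prefers IGF2, was 0.48 below HFD in ob/ob mice, and neither Htra1 nor Igfbp6 was called in that comparison. Against LFD, Igfbp6 differed by -1.04 in ob/ob mice, which was called.

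Genes whose products bind H19 RNA or are targets or regulators of it had a row in 8 of 12 cases. Of these, 2 were called as higher in HFD than in LFD, beside 11.5% of all genes, and 1 in ob/ob than in LFD mice, near the 11.6% of all genes. None was lower, and none was called in ob/ob against HFD. Igf2bp2, an RNA-binding protein of Igf2 mRNA and H19, was 4.69, 3.69 and 3.85 in LFD, 4.98, 6.75 and 6.86 in HFD, and 5.33 and 6.52 in ob/ob mice. It was 2.12 and 1.85 above LFD, both called. Hmga2, a chromatin protein of embryonic and tumour cells, was 4.63, 5.23 and 4.58 in LFD, 5.20, 8.11 and 8.70 in HFD, and 5.18 and 8.10 in ob/ob mice. Its 2.52 in HFD was called and its 1.83 in ob/ob mice was not, and in each group 1 mouse was within the LFD range. Afp, a fetal serum protein, was 0.95 above LFD in HFD mice, through the third HFD mouse (4.90), and was not called. The other HFD mice (2.36 and 2.54) were within the LFD range (1.94 to 2.86), and these levels are low. Unlike H19, these genes were not higher in ob/ob than in HFD mice on average, with -0.27 for Igf2bp2, -0.69 for Hmga2 and -0.42 for Afp.

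The makeup of the tissue differed between mice of 1 group. All 20 acinar markers, which are digestive enzymes and their regulators, had a row, and their mean rlog was 16.93 to 17.38 in LFD, 17.24, 15.19 and 13.29 in HFD, and 16.55 and 13.61 in ob/ob mice. All 20 were lower on average in HFD and in ob/ob than in LFD mice, with medians of -1.94 and -2.07, though 1 was called in each, beside 8.35% and 7.18% of all genes called as lower. The fit gave large SEs to the markers with the highest levels. For Amy2a5 the SE was 8.73 in HFD against LFD, with SDs of 0.38, 2.08 and 2.11 in LFD, HFD and ob/ob mice. The number of calls therefore does not measure how much lower the markers were. The pancreas label thus held for each mouse by markers that were present throughout, and the acinar level split the HFD and the ob/ob mice.

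For H19, the ob/ob mice had the highest values at both acinar levels. The first ob/ob mouse, with an acinar level of 16.55, had 7.32, and the third HFD mouse, with the lowest acinar level of 13.29, had 5.69. Over the 8 mice H19 had r = -0.61 and rho = -0.69 with the acinar level, given as a description without a test. Without the third HFD and the second ob/ob mouse r was -0.46. With the acinar level as a covariate, the difference of H19 was 2.66 in ob/ob against LFD and 0.10 in HFD against LFD. The acinar level itself differed between the groups, and the part of acinar cells in the level of H19 was not tested. The other 8 genes were each compared with the acinar level over 8 mice by two-sided exact permutation tests, adjusted over the 8 relations. Grb10 had r = 0.74 (permutation p = 0.0358, adjusted p = 0.124) and rho = 0.93 (permutation p = 0.00223, adjusted p = 0.0179). Leaving out the third HFD and the second ob/ob mouse, the 2 whose acinar level was farthest from the median, gave r = 0.97. The second HFD mouse (acinar level 15.19, Grb10 9.42) weighs heavily in this r, since the other mice left had acinar levels of 16.55 to 17.38. The second ob/ob mouse, left out there, had an acinar level of 13.61 with Grb10 at 10.03, near the first ob/ob mouse (10.12). With the acinar level as a covariate, the difference of Grb10 between the diets was -0.29 and was no longer called.

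Plagl1 had r = 0.75 (permutation p = 0.0242, adjusted p = 0.124) and rho = 0.71 (permutation p = 0.0576, adjusted p = 0.230), and r was 0.34 without the same 2 mice. Cdkn1c had r = 0.71 (permutation p = 0.0466, adjusted p = 0.124) and rho = 0.26 (permutation p = 0.536, adjusted p = 0.776), and r turned to -0.46, so the relations of Plagl1 and Cdkn1c rested on those mice. For the other 5 genes r ranged from -0.44 to 0.19, with no permutation p-value under 0.05. These relations pool the mice of all 3 groups, and relations within the groups were not tested.

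**Figure D4:**
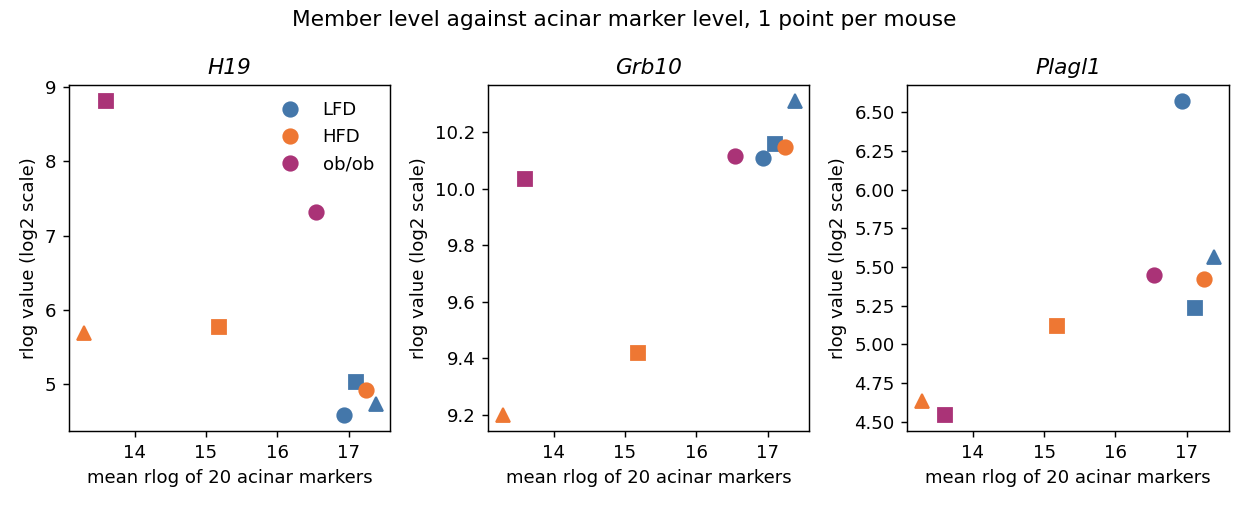
Rlog value (vertical axes, log2 scale) of H19, Grb10 and Plagl1 against the mean rlog of 20 acinar markers (horizontal axes), with 1 point per mouse, colours for groups and symbols for replicates as in the plot of values by mouse. The ob/ob mice are highest for H19 at acinar levels of both 16.55 and 13.61, and the HFD mice with acinar levels of 15.19 and 13.29 are lowest for Grb10.

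Markers of other cells moved with the groups too. The 16 islet markers had a mean rlog of 7.47 to 8.42 in LFD, 7.32 to 7.69 in HFD and 9.08 and 8.20 in ob/ob mice. Of them, 8 were higher in ob/ob than in LFD and 10 in ob/ob than in HFD mice, beside 11.6% and 2.28% of all genes, none was lower, and none was called between the diets. Chgb, a granule protein of endocrine cells, was 2.07 higher in ob/ob than in LFD mice, and Scg2 and Iapp, of the same granules, were 1.63 and 1.62 higher. For these islet markers the first ob/ob mouse was above the second, the reverse of H19.

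The 12 fibroblast markers had a mean of 8.98 to 9.41 in LFD, 9.76 to 10.61 in HFD and 10.20 and 10.999 in ob/ob mice, with 6 higher in HFD and 10 in ob/ob than in LFD mice, beside 11.5% and 11.6% of all genes, and none called in ob/ob against HFD. Col1a1, a collagen chain, was 2.16 and 2.19 above LFD. The 9 leukocyte markers had a mean of 7.11 to 7.96 in LFD, 8.09 to 8.78 in HFD and 8.40 and 8.95 in ob/ob mice, with 5 and 7 higher than in LFD mice, beside the same shares, and 1 lower in ob/ob than in HFD mice, beside 1.63% of all genes. For fibroblast and leukocyte markers, as for H19, the second ob/ob mouse was the higher of the pair, while the HFD mice, with H19 at 4.92 to 5.77, overlapped the ob/ob mice in both. The part of fibroblasts, leukocytes and islet cells in the level of H19 was not tested. Skeletal muscle, a tissue in which H19 stays on after birth, was represented by 3 of 13 markers, with a mean of 2.67 to 3.73 over the mice and its lowest value in the second ob/ob mouse, and Acta1, Myh1, Myh2, Myh4 and Myod1 were among the markers without a row. In ob/ob against LFD mice, the 3 measured markers differed by -1.94 for Ckm, a muscle creatine kinase, by -0.32 for Mylpf, a myosin light chain, and by 0.71 for Tnni2.

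The genes most like H19 over the 8 mice were sought among the 11832 genes with a mean rlog of at least 5. They were Gusb, a lysosomal glucuronidase (r = 0.98), Nradd, a death domain protein (r = 0.96), B4galt2, a galactosyltransferase (r = 0.96), Mfsd1, a lysosomal transporter (r = 0.96), Rcn1, a calcium-binding protein of the endoplasmic reticulum (r = 0.95), and F13a1, a transglutaminase subunit known in macrophages (r = 0.95). These values are a description, since the 2 ob/ob mice weigh heavily in all of them. F13a1 had 9.78, 9.45 and 9.36 in LFD, 9.90, 10.03 and 9.66 in HFD, and 10.70 and 11.78 in ob/ob mice, so that, as for H19, both ob/ob mice were above the others and the second was the higher. None of the imprinted growth genes was among the genes most like H19. The nearest was Peg3 (r = 0.45, rank 3631), followed by Meg3 (0.37), Mest (0.29), Igf2r (0.18) and Grb10 (-0.07), while Cdkn1c (-0.47) and Plagl1 (-0.59) ran the other way. Igf2 was below the minimum level and was not ranked.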

How the data were processed

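Pancreas RNA of 8 mice was sequenced as paired-end libraries, and replicates are separate animals grouped by diet or genotype in the sample labels. The authors checked reads with FASTQC, quantified Gencode M18 transcripts (GRCm38.p6) with Salmon 0.11.3 and tximport, and deposited log2-scale rlog values made with DESeq2 1.22.2 for 15047 symbols. The filter that left these genes is not given in the sources used here. Counts were not used, so depth and counting error are unknown, and the precision is set by 3, 3 and 2 mice. Salmon divides reads between overlapping transcripts by probability.

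Groups were compared with limma 3.58.1 in R 4.3.3 on the rlog values, with 1 mean per group, all 8 mice, empirical Bayes with a trend on the mean, and Benjamini-Hochberg adjustment over all genes. Genes with an unadjusted p-value under 0.05 are written as called. Relations with the acinar level used exact permutation tests over 40320 orders in SciPy 1.17.1.

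The growth genes and all lists were chosen with earlier results of these data known. Named genes were all of the growth genes, at most the 3 largest differences of each other list in each comparison, genes with an adjusted p-value under 0.05, and the 6 genes most like H19 by each measure. Serpina7 and Tnr were named after their values were seen. Alternatives were a fit to the compared groups alone, no trend, a minimum mean rlog of 5, median centring, quantile normalization, a replicate block, an acinar covariate and leaving out each mouse.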

Additional observations from a re-analysis of the deposited data

Results flagged for a closer look

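Igf2 and Peg3 were singled out because the HFD and the ob/ob mice lay on opposite sides of the LFD mean, with every HFD mouse below it and every ob/ob mouse above it. The mean of ob/ob exceeded that of HFD by 0.87 in rlog for Igf2 and by 0.82 for Peg3. Whether the effects of HFD and ob/ob differed was not tested, because the choice of the genes used ob/ob against HFD. Over all genes 334 of 15047 had HFD and ob/ob mice on opposite sides of the LFD mean, or 2.22%, and 2 of the 9 growth genes did, or 22.2%. The choice of the genes rests on ob/ob values, so the share among them is a description. The first HFD mouse had 7.79 for Peg3, close to the LFD mean of 7.81. For Igf2 the second ob/ob mouse (3.53) was below the second and the third LFD mouse (3.55 each). Groups of 3 and 2 mice were not screened for single mice far from the others.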

How the results depend on the processing

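H19 was higher in ob/ob mice under each alternative, from 2.54 to 4.03 against LFD, including 2.66 with the acinar covariate, and from 1.86 to 3.35 against HFD, both ranges set by leaving out 1 or the other ob/ob mouse. Between the diets, 1 of the growth genes, Grb10, was called. The count was 2 with only the groups compared (Grb10 and Mest), with quantile normalization (Grb10 and Igf2) and with the replicate block (Grb10 and Plagl1). It was 0 with the acinar covariate and 0 to 1 when 1 LFD or HFD mouse was left out. Of the other imprinted genes, 7 were called in HFD against LFD (3 to 12 when 1 mouse was left out), and 10 in ob/ob against LFD (6 at a mean rlog of at least 5, and 4 to 13 when 1 mouse was left out). In ob/ob against HFD 2 were called, and 1 with only the groups compared, with quantile normalization or with the replicate block, 0 at a mean rlog of at least 5, 5 with the acinar covariate, and 1 to 5 when 1 mouse was left out. The 2 called genes, Peg10 and Phlda2, had means below that minimum and were not in that fit. Signs turned in HFD against LFD for Meg3, which ranged from -0.050 (without LFD replicate 3) to 0.49 when 1 mouse was left out, and for Cdkn1c, which ranged from -0.31 to 0.0077 (without HFD replicate 3) and was 0.23 with the acinar covariate. The count of genes related to the acinar level by Pearson correlation was 0 at an adjusted p-value under 0.05, and 0 to 1 when 1 mouse was left out. The cause of these shifts was not tested. Over all genes, 1480 to 5445 were called between the diets, 752 to 4075 in ob/ob against LFD and 353 to 1185 in ob/ob against HFD. At an adjusted p-value under 0.05, up to 2812, 89 and 1 passed. The 2812 came without HFD replicate 1. Mice with the same replicate number did not all deviate together, with r from -0.28 to 0.59 over 7 pairs, so the replicate block serves as an alternative only. Depth is unknown, and for genes as low as Igf2 the shrinkage in rlog limits what can be seen.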

Other observations

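The 12 ductal markers had a mean rlog of 8.95 to 9.25 in LFD, 9.33 to 10.14 in HFD and 9.41 and 8.74 in ob/ob mice. Of them, 6 were higher in HFD than in LFD, and 6 were lower in ob/ob than in HFD mice, among them Krt19 and Krt7, keratins of duct cells, at -1.35 each. In ob/ob against LFD mice 1 was higher and 2 were lower. The part of ductal cells in the level of H19 was not tested. Called as higher and lower over all genes were 11.5% and 8.35% in HFD against LFD, 11.6% and 7.18% in ob/ob against LFD, and 2.28% and 1.63% in ob/ob against HFD, and the counts of all lists here are beside these shares.

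The 10 adipocyte markers had a mean of 7.20 to 7.67 in LFD, 7.22 to 7.46 in HFD and 7.83 and 6.68 in ob/ob mice, with 1 higher and 1 lower in each comparison with LFD and none called in ob/ob against HFD. Cfd, the adipocyte protease adipsin, was lower by 2.13 in ob/ob than in LFD mice, and Lep, the leptin gene, was 1.34 higher. The 8 endothelial markers had means between 7.02 and 7.86 over all mice, with 1 higher in HFD than in LFD and none called in the other comparisons. The 8 mesothelial markers, which share Krt19 with the ductal ones, had means between 5.67 and 6.72. In HFD against LFD, 2 were higher and 2 lower, and in the comparisons with ob/ob mice 2 were lower than in LFD and 1 was lower than in HFD. Of the 3 muscle markers, Tnni2 was called as higher in HFD and Ckm as lower in ob/ob mice, each against LFD.

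Within groups, the genes whose deviations from the group means were most like those of H19 were Ap3m2, Cct6a, Psmc2, Pla2g4a, Uba6 and Dmtf1, with r of 0.99 for each over 8 mice. The ob/ob pair, which spread most in H19, weighs heavily in these values. The growth genes had r from -0.74 (Plagl1) to 0.48 (Igf2r) by the same measure.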
